A study of Homo sapiens with 6 samples.

Results

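The genes described here are 10 transcripts that the ERK branch of MAP kinase signaling is known to induce and that mostly act back on it: DUSP4, DUSP5, DUSP6, SPRY2, SPRY4, SPRED1, ETV4, ETV5, PHLDA1 and IER3. They were chosen by gene symbol from what is known of their roles, and all 10 were found among the 16390 genes listed in each library and passed the filter on low counts. The cells were SW780, an established human bladder cancer line taken by the study as luminal, and the agent was RC48 (disitamab vedotin), an antibody against the receptor ERBB2 that delivers monomethyl auristatin E, a drug against microtubules. Sequencing of total RNA covered 3 control libraries (Control) and 3 libraries of cells that had received RC48, at 25 µg/ml (RC48). The methods speak of stable SW780 exposed to the conjugate, give no exposure time, and do not say whether the 3 replicates of a group were separate cultures, so the p-values measure the spread between these libraries, which may be technical. All 6 libraries come from 1 cell line, and fewer cells of a kind cannot be told apart from less RNA per cell.

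Receptors such as EGFR and ERBB2 pass a growth signal through RAS, RAF and MEK to the kinase ERK, which enters the nucleus and switches on transcription. Part of that response is negative feedback, since the new transcripts encode phosphatases that remove the activating phosphates from ERK and inhibitors that block the pathway near the receptor and RAS. For this reason the transcript levels of DUSP6, the Sprouty genes and the PEA3 factors ETV4 and ETV5 are widely used as readouts of ERK output in epithelial cancers.

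Total estimated counts ranged from 16453233 to 17026155 in the Control libraries and from 17271978 to 17988030 in the RC48 libraries. Among all 6 libraries, the count of a member ranged from 177 to 4833. Values are given as CPM, counts relative to the size of the library, scaled by the trimmed mean of M-values (TMM). The epithelial markers EPCAM, CDH1, KRT8, KRT18 and KRT19 summed to 6441 to 7360 CPM in Control and 6849 to 7860 CPM in RC48, whereas the 4 listed of 5 leukocyte markers summed to at most 3.64 CPM in any library. Fibroblast markers (2 listed of 3) summed to at most 19.25 CPM and the 3 endothelial markers to at most 29.7 CPM. The 3 listed of 5 basal markers summed to 331 to 349 CPM in Control and 303 to 339 CPM in RC48. Most of this was CD44, with means of 330 and 311 CPM. Of the luminal markers, GATA3 had means of 235 CPM in Control and 252 CPM in RC48, and FOXA1 of 147 and 108.5 CPM (edgeR adjusted p = 0.668 and 0.194). KRT20 was low, at 1.98 ± 0.0439 CPM in Control and 0.667 ± 0.290 CPM in RC48 (SD, n = 3), a fall by 1.55 on the log2 scale (edgeR adjusted p = 0.0489) that stood at -1.53 to -1.56 without a Control library (adjusted p from 0.214 to 0.232). The chi-square of counts between libraries, divided by its degrees of freedom and close to 1 under counting noise alone, was 1.50 between Control replicates 1 and 2, 9.95 and 12.2 between each of them and Control replicate 3, and 23.1 to 140.0 among the RC48 libraries. The RC48 libraries also differed in how their log2 ratio to Control followed the GC content of a transcript, with a Spearman rho over 13000 genes of 0.76 in replicate 1, -0.014 in replicate 2 and 0.59 in replicate 3. Each member was therefore also tested with the trend of each library with GC content allowed for in the fit (GC correction).

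The promoters of 5 members, DUSP6, SPRY2, SPRY4, SPRED1 and PHLDA1, were in the RefSeq table used here (GRCh38.p14), and those of DUSP4, DUSP5, ETV4, ETV5 and IER3 were not. ETV4, ETV5 and the ERK substrate ELK1 belong to the ETS family of factors, which read the core GGAA, so the 250 bases before the annotated start were searched on both strands for the longer letters CCGGAA, which contain that core. A match was found upstream of SPRY2, at its outermost annotated start, and of PHLDA1, and 14.5% of the 35116 promoters in the table held at least 1 match. These 2 sequences and that of DUSP6, the phosphatase most used as an ERK readout, are printed so that a member with higher values after RC48 (SPRY2) can be read beside a pair with lower values. Each runs 5′ to 3′ on the gene's strand, and capitals mark CCGGAA or its reverse complement.
DUSP6, chr12:89352502-89352751 (minus strand): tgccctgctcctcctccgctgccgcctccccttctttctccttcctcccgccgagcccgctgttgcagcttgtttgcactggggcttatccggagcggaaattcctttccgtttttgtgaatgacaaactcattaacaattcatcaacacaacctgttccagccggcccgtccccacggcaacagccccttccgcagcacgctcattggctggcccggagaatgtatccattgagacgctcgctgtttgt
PHLDA1, chr12:76031777-76032026 (minus strand): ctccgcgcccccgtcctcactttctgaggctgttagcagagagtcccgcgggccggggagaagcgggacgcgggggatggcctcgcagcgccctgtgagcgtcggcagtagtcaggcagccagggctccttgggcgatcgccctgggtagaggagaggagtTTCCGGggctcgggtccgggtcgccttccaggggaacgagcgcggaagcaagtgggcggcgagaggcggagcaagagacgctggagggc
SPRY2, chr13:80341127-80341376 (minus strand): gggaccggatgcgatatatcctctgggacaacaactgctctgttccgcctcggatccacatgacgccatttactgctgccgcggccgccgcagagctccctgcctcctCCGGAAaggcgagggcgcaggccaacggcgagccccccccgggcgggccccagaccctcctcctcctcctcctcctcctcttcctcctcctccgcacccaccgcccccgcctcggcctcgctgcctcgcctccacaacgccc
The DUSP6 window held 6 copies of the GGAA core on either strand but no CCGGAA, PHLDA1 held 4 and SPRY2 held 3 at this start, against a median of 3 over all promoters. The CCGGAA match began 142 bases before the SPRY2 start and 89 bases before that of PHLDA1. A match is a string of letters and not a measured binding site.

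Per transcript length, the deposited TPM values of the Control libraries ordered the members from DUSP6 to SPRY4. DUSP6 stood at 116 ± 15.7 TPM and IER3 at 105 ± 3.97 TPM (SD, n = 3), and the ranges of these 2 genes overlapped. PHLDA1 followed at 86.1 ± 7.44 TPM, ETV4 at 63.8 ± 3.18 TPM, DUSP4 at 39.7 ± 3.10 TPM and DUSP5 at 31.9 ± 2.30 TPM. ETV5 was at 17.7 ± 1.84 TPM, SPRY2 at 9.95 ± 0.246 TPM, SPRED1 at 8.26 ± 0.727 TPM and SPRY4 at 4.75 ± 0.630 TPM. The ranges of neighbours below IER3 did not overlap. The ERK phosphatase DUSP6 and the stress-responsive IER3 were thus the most abundant of the group per length, and the Sprouty family genes the least. In RC48 replicates 1 and 3, for which TPM was used here, DUSP6 was at 71.1 to 77.1 TPM and DUSP5 at 39.9 to 44.5 TPM.

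After exposure to RC48 the feedback genes did not share a direction. The fold change was below 0 on the log2 scale for 5 members (DUSP4, DUSP6, SPRED1, ETV4 and PHLDA1) and above 0 for the other 5 (DUSP5, SPRY2, SPRY4, ETV5 and IER3), with a median of -0.11 against 0.016 over all 13055 genes tested. By edgeR's quasi-likelihood test, adjusted by Benjamini-Hochberg, 1 of 10 members was called at an adjusted p under 0.05, DUSP4, which fell. Of all genes tested, 2.21% were called, 0.230% as lower and 1.98% as higher in RC48. At an unadjusted edgeR p under 0.05 there were 7 members, when 19.1% of all genes were there. The CPM of the groups did not overlap in 9 of the 10 members, lower in RC48 in 5 and higher in 4, while 14.1% of all genes tested were lower and 17.4% higher without overlap. With 3 libraries per group an exact permutation test cannot give a p-value below 0.1, which is the value that each of these 9 members had. After the GC correction, 3 of 10 members were called, DUSP4, DUSP6 and ETV4, all lower in RC48. In that fit 8.21% of all genes were called and 3.79% as lower, and the split of all calls was 577 higher and 495 lower, whereas it was 258 and 30 without the correction.

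**Figure D1:**
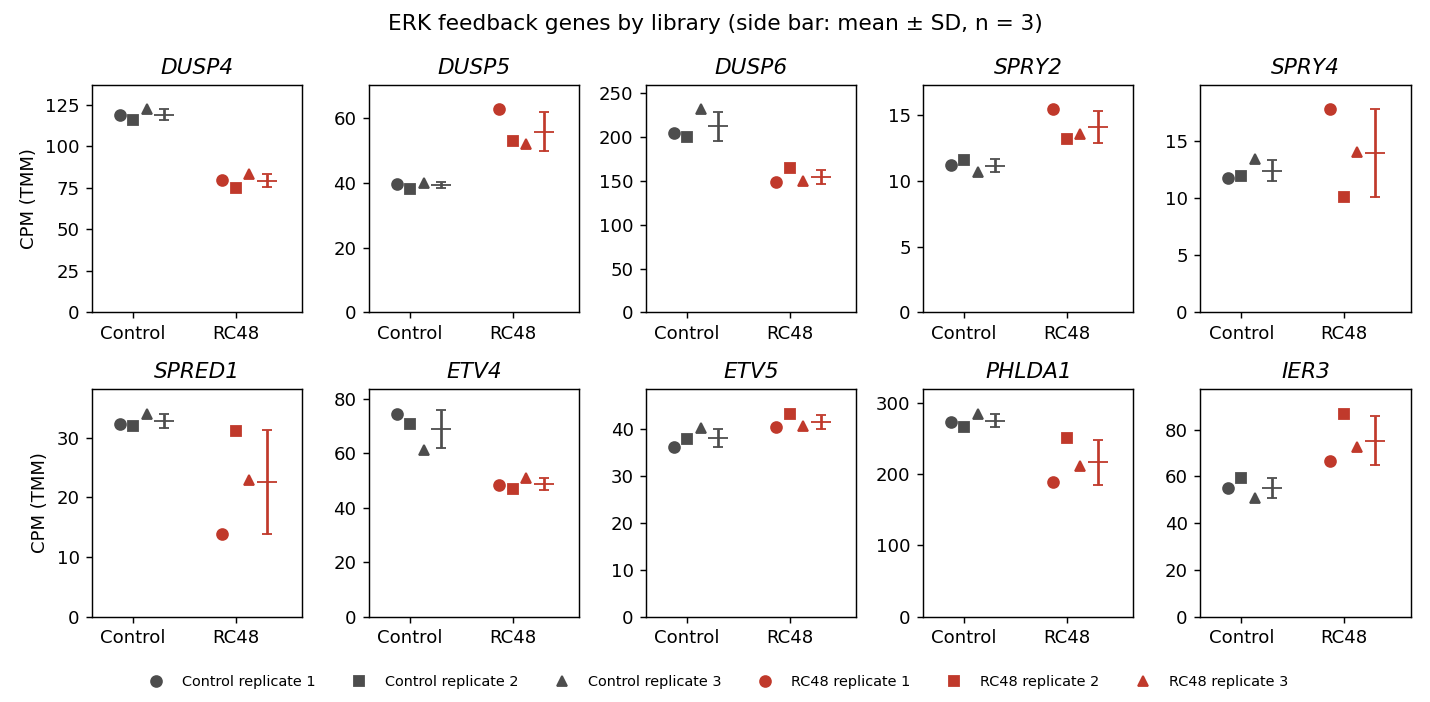
CPM after TMM scaling of each ERK feedback gene (vertical axes, each starting at 0) in the 3 Control (grey) and 3 RC48 (red) libraries, with symbols for replicate numbers and the mean ± SD (n = 3) beside the points. The groups overlap only in SPRY4, and SPRED1 and PHLDA1 spread widely among the RC48 libraries, with replicate 2 nearest to Control.

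The first group of members encodes dual-specificity phosphatases, which dephosphorylate MAP kinases. DUSP4 (NCBI gene 1846, chr8:29333064-29350684 in RefSeq GRCh38.p14), a nuclear phosphatase of ERK and other MAP kinases, had 119, 116 and 122 CPM in Control replicates 1, 2 and 3, and 79.9, 75.1 and 83.3 CPM in RC48 replicates 1, 2 and 3. The highest RC48 library lay far below the lowest Control library, and the libraries within each group were close. DUSP4 fell by 0.58 on the log2 scale (SE 0.11, 95% confidence interval -0.84 to -0.33, edgeR adjusted p = 0.0416), a decrease of 33.2%. After the GC correction its difference was -0.75 (SE 0.088, edgeR adjusted p = 0.00165). The call rested on all libraries but RC48 replicates 1 and 2: without Control replicates 1, 2 or 3 the edgeR adjusted p was 0.276, 0.241 or 0.213, and without RC48 replicate 3 it was 0.186, while the log2 fold change stayed between -0.56 and -0.64.

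DUSP6 (NCBI gene 1848, chr12:89347235-89352501), the cytoplasmic phosphatase specific for ERK, had 204, 201 and 232 CPM in the Control libraries and 149, 164 and 150.5 CPM in the RC48 libraries. Every RC48 library was below every Control library, and the ratio to Control was alike in the 3 RC48 libraries, at -0.51, -0.37 and -0.49 on the log2 scale. The log2 fold change was -0.46 (SE 0.12, 95% confidence interval -0.72 to -0.19), which did not pass the test (edgeR adjusted p = 0.111). It passed with the GC correction, at -0.55 (SE 0.092, edgeR adjusted p = 0.00988). The readthrough gene POC1B-DUSP6 overlaps DUSP6 in the annotation and was not among the genes listed, so reads of the 2 could not be separated.

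DUSP5 (NCBI gene 1847, chr10:110497907-110511533), a nuclear ERK phosphatase, had the opposite sign. It was at 39.6, 38.2 and 39.9 CPM in Control and 62.7, 52.8 and 51.9 CPM in RC48. All RC48 libraries were above all Control libraries, with replicate 1 the highest. The log2 fold change was 0.51 (SE 0.13, 95% confidence interval 0.21 to 0.81) and did not pass the test (edgeR adjusted p = 0.110), nor did it with the GC correction, where it was 0.27 (SE 0.082, edgeR adjusted p = 0.0795).

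The second group encodes adaptors and inhibitors that act upstream of RAF. SPRY2 (NCBI gene 10253, chr13:80335976-80341126), a Sprouty inhibitor of receptor tyrosine kinase signaling, had 11.2, 11.6 and 10.7 CPM in Control and 15.4, 13.1 and 13.6 CPM in RC48. The groups did not overlap, but the step was small. Its log2 fold change of 0.33 (SE 0.14, 95% confidence interval 0.010 to 0.65) did not pass the test (edgeR adjusted p = 0.254), and with the GC correction it was 0.37 (SE 0.13, edgeR adjusted p = 0.114).

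SPRY4 (NCBI gene 81848, chr5:142310430-142325021), its relative, was at 11.8, 11.9 and 13.5 CPM in Control and at 17.8, 10.1 and 14.0 CPM in RC48. The RC48 libraries lay on either side of the Control range, with replicate 1 above it and replicate 2 below it. Its fold change on the log2 scale was 0.17 (SE 0.21, 95% confidence interval -0.33 to 0.67, edgeR adjusted p = 0.607), -0.025 with the GC correction and -0.045 without RC48 replicate 1.

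SPRED1 (NCBI gene 161742, chr15:38252836-38357249) brings the RAS inactivator NF1 to the membrane. It had 32.3, 31.9 and 34.0 CPM in Control and 13.8, 31.1 and 22.8 CPM in RC48. The Control libraries were tight, whereas RC48 replicate 2 was just under them and replicate 1 was the lowest by far. The log2 fold change of -0.54 (SE 0.27, 95% confidence interval -1.15 to 0.082) did not pass the test (edgeR adjusted p = 0.290). SPRED1 had the lowest transcript GC content of the members, 40.7%, and with the GC correction its difference was -0.27 (SE 0.11, edgeR adjusted p = 0.165). Without RC48 replicate 1 it was -0.29 and without RC48 replicate 2 it was -0.84.

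The third group is the pair of PEA3 factors, ETS transcription factors that ERK signaling induces. ETV4 (NCBI gene 2118, chr17:43527846-43546340) was at 74.5, 70.7 and 61.1 CPM in Control and 48.2, 46.9 and 51.0 CPM in RC48. No library of RC48 reached the lowest Control library, replicate 3. A log2 fold change of -0.50 (SE 0.13, 95% confidence interval -0.79 to -0.20) did not pass the test (edgeR adjusted p = 0.115). ETV4 had the highest GC content of the members, 60.3%, and with the GC correction it passed at -0.80 (SE 0.15, edgeR adjusted p = 0.0135). DHX8, an RNA helicase gene that overlaps ETV4 in the annotation, had means of 113 CPM in Control and 131 CPM in RC48 (log2 fold change 0.21, edgeR adjusted p = 0.358), and the sources used here do not say whether counting used the strand.

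ETV5 (NCBI gene 2119, chr3:186046314-186109089), the other PEA3 factor, was at 36.1, 37.7 and 40.0 CPM in Control and at 40.4, 43.2 and 40.6 CPM in RC48. The highest Control library, replicate 3, came close to the lowest RC48 library, so the groups were separate by a narrow margin. On the log2 scale the difference was 0.13 (SE 0.12, 95% confidence interval -0.15 to 0.40, edgeR adjusted p = 0.502), and 0.022 with the GC correction. The upper end of that interval is a level 1.32 times that of Control, and its lower end is below the Control level.

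The last members are ERK-induced genes outside the phosphatase and inhibitor families. PHLDA1 (NCBI gene 22822, chr12:76025447-76031776), which encodes a pleckstrin homology-like protein linked to cell survival, had 273, 266 and 285 CPM in Control and 188, 250.0 and 210.4 CPM in RC48. RC48 replicate 2 was again the closest to Control. Its log2 fold change of -0.34 (SE 0.13, 95% confidence interval -0.65 to -0.036) did not pass the test (edgeR adjusted p = 0.235). With a GC content of 43.3%, its difference was -0.17 with the GC correction (SE 0.077, edgeR adjusted p = 0.193).

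IER3 (NCBI gene 8870, chr6:30743199-30744547) is an immediate early gene that NF-κB and stress also induce. It had 55.2, 59.5 and 50.6 CPM in Control and 66.6, 87.0 and 72.4 CPM in RC48. Here replicate 2, and not replicate 1, was the RC48 library farthest from Control. Its difference on the log2 scale was 0.45 (SE 0.14, 95% confidence interval 0.12 to 0.79, edgeR adjusted p = 0.183), and 0.20 with the GC correction (SE 0.20, edgeR adjusted p = 0.546). Antisense genes overlap IER3, PHLDA1 and ETV5 in the annotation and a noncoding gene overlaps SPRY4, and none of them was among the genes listed.

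**Figure D2:**
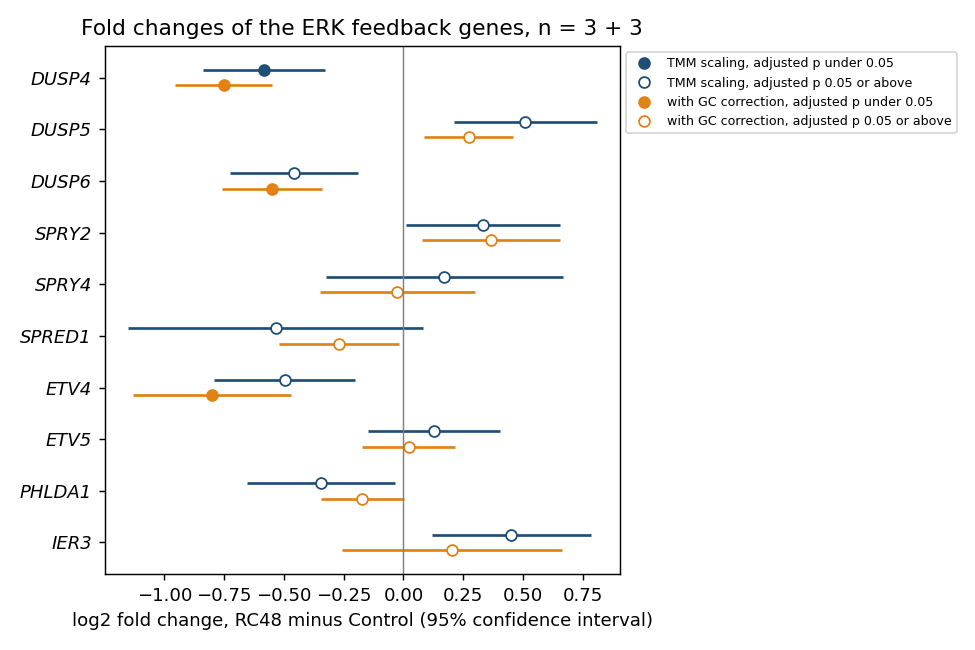
Log2 fold change, RC48 minus Control, of each ERK feedback gene with its 95% confidence interval from edgeR (n = 3 libraries per group), with TMM scaling (blue) and with the GC correction (orange), and filled points for an adjusted p under 0.05. DUSP4 is filled in both fits and DUSP6 and ETV4 with the GC correction alone, while SPRY4 moves across 0.

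The calls among the members changed with single libraries. Without RC48 replicate 1, the library with the steepest GC trend, 5 members were called, DUSP4, DUSP6 and ETV4 as lower and DUSP5 and IER3 as higher, when 6.82% of all genes were. Without RC48 replicate 2, 6 were called, DUSP4, DUSP6, SPRED1, ETV4 and PHLDA1 as lower and DUSP5 as higher, when 28.3% of all genes were. Without RC48 replicate 3 or any 1 Control library, edgeR called 0 members. It called 0.706% of all genes without RC48 replicate 3 and 0.537%, 0.591% and 0.515% without Control replicates 1, 2 and 3. In these 4 fits, 5, 4, 5 and 4 members were at an unadjusted p under 0.05, when 11.5%, 9.96%, 10.4% and 10.3% of all genes were. DESeq2 on all 6 libraries called 4 members, when it called 5.70% of all genes. Over 16 alternatives, those without a library included, the adjusted p ran from 8.56e-05 to 0.276 for DUSP4, which was called in 11, from 0.00988 to 0.411 for DUSP6, called in 7, and from 0.0124 to 0.491 for ETV4, called in 7. DUSP5, SPRED1 and PHLDA1 were called in 3 each, with lowest values of 0.0162, 0.0300 and 0.0278, IER3 in 1 (0.0164), and SPRY2, SPRY4 and ETV5 in 0, with lowest values of 0.0844, 0.124 and 0.501. In every one of the 16 alternatives the sign of DUSP4, DUSP5, DUSP6, SPRY2, SPRED1, ETV4, PHLDA1 and IER3 was as in the main test, whereas it turned in 3 for SPRY4 and in 2 for ETV5.

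The ratio of a member to Control in each RC48 library can be set beside its GC content. In RC48 replicate 1 the median log2 ratio of all genes ran from -1.01 in the tenth of genes with the lowest GC content to 0.68 in the tenth with the highest. It ran from -0.41 to 0.25 in replicate 3 and from 0.016 to 0.0088 in replicate 2, which had no such slope. In replicate 2, DUSP4 stood at -0.66, ETV4 at -0.55, DUSP6 at -0.37 and SPRY4 at -0.29, IER3 at 0.66 and DUSP5 at 0.43, and the other 4 members lay between -0.13 and 0.23. In this 1 library without a GC trend, DUSP4, ETV4 and DUSP6 were below Control, and DUSP5 and IER3 were above it. SPRED1 stood at -1.24 in replicate 1, -0.072 in replicate 2 and -0.52 in replicate 3, which is the order of the slopes. The part of GC content in the difference of SPRED1, or of any other member, was not tested.

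**Figure D3:**
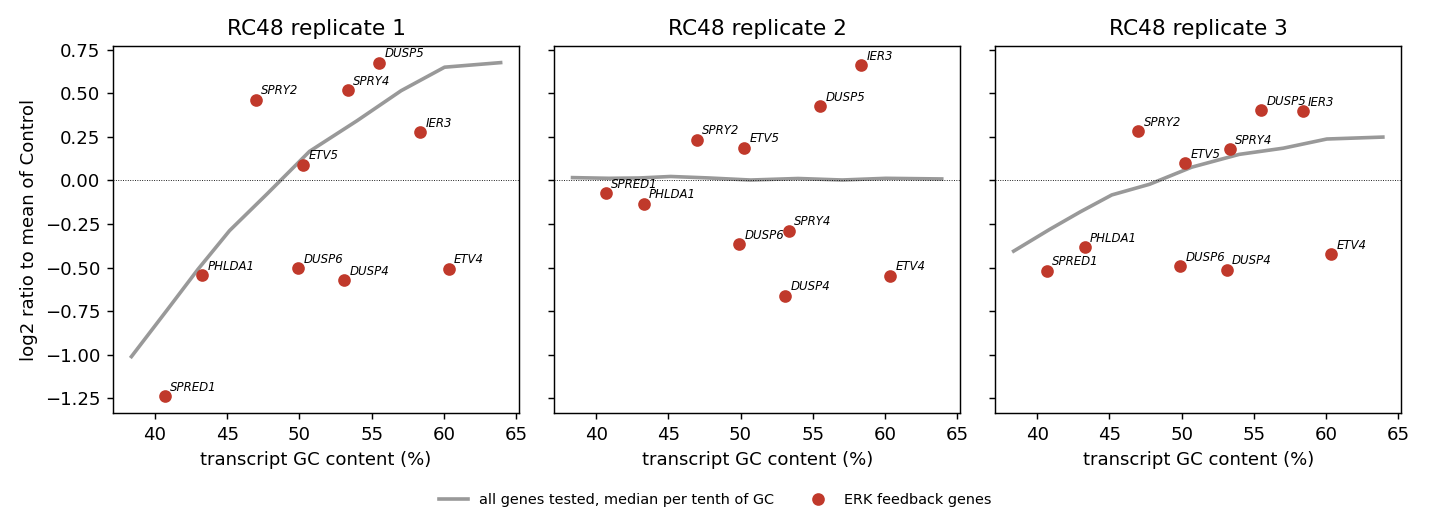
Log2 ratio of each ERK feedback gene to the mean of Control (red points) against the GC content of its transcript in percent, in each RC48 library, with the median of all genes tested in 10 classes of GC content (grey line). PHLDA1 lies near the grey line in replicate 1, DUSP4, DUSP6 and ETV4 lie below it in all 3 libraries, and SPRY2 lies above it in all 3. After the GC correction the ratios of SPRED1 and PHLDA1 to Control are also below 0 in all 3, and that of DUSP5 is above 0 in all 3.

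Within families, the members were compared by the log2 ratio of their CPM inside each library, in which scaling between libraries cancels. The trend of a library with GC content does not cancel where the 2 genes differ in it, and these ratios were not GC-corrected. GC content was 53.1% for DUSP4, 55.5% for DUSP5 and 49.9% for DUSP6. It was 60.3% for ETV4 and 50.2% for ETV5, and 47.0% for SPRY2, 53.3% for SPRY4 and 40.7% for SPRED1. CPM is not per length, so only the change of a ratio between the groups is read. These 7 pairs were chosen after the values were seen. DUSP5 relative to DUSP6 was at -2.37, -2.39 and -2.54 in Control and at -1.25, -1.64 and -1.53 in RC48, so that the ratio was 1.94 times as high after RC48. DUSP4 relative to DUSP5 was at 1.58, 1.60 and 1.62 in Control and at 0.35, 0.51 and 0.68 in RC48, and the ratio was 0.470 times its Control level. DUSP4 relative to DUSP6 overlapped between the groups, with means of -0.83 ± 0.078 in Control and -0.96 ± 0.15 in RC48 (SD, n = 3). The ratios that held DUSP5 had to separate the groups, since DUSP5 was higher and DUSP4 and DUSP6 were lower in RC48 without overlap. The ratio of the other 2 phosphatases did not separate them.

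Among the transcription factors, ETV4 relative to ETV5 was at 1.04, 0.91 and 0.61 in Control and 0.26, 0.12 and 0.33 in RC48. All RC48 libraries were below all Control libraries, and the ratio was 0.651 times its Control level. SPRY2 relative to SPRED1 was higher in every RC48 library, but its RC48 values ran from -1.25 to 0.16. The ratios of SPRY4 to SPRY2 and to SPRED1 overlapped between the groups. Two-sided exact permutation tests gave p = 0.1 for the 4 pairs without overlap, the smallest value possible with 3 libraries per group, and 0.175 after Benjamini-Hochberg adjustment over the 7 pairs, so none could pass. Each of these 4 pairs sets a member higher in RC48 without overlap against a member lower without overlap. Their separation and p-value were therefore fixed by the values of the single members and add no further evidence.

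**Figure D4:**
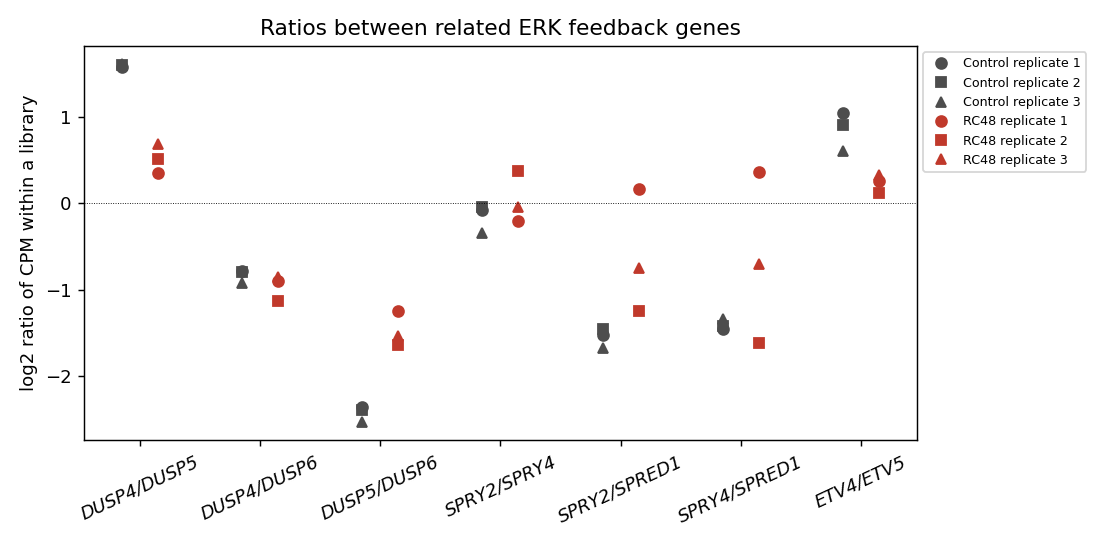
Log2 ratio of the CPM of 2 related members within each library (vertical axis), for 3 pairs of phosphatases, 3 pairs of Sprouty family genes and the pair of PEA3 factors, with Control in grey and RC48 in red. The groups separate for DUSP4/DUSP5, DUSP5/DUSP6, SPRY2/SPRED1 and ETV4/ETV5, as each of these pairs holds a member higher and a member lower in RC48 without overlap.

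By the likeness of log2 CPM over the 6 libraries among 9995 other genes with a mean of at least 10 CPM, the 5 genes nearest to DUSP6 were PPARGC1B, MEIS2, GLI3, GPD1L and NPIPB11, with Pearson r from 0.993 to 0.998. All 5 were lower in each RC48 library than in each Control library, and PPARGC1B, a transcriptional coactivator of mitochondrial genes, passed the test (log2 fold change -0.87, edgeR adjusted p = 0.0438). These genes were picked for likeness to DUSP6, whose groups do not overlap, so neither result is separate evidence. NPIPB11 belongs to a multigene family whose members share reads, so its counts are uncertain. Of the other members, DUSP4 had an r of 0.93 with DUSP6 and PHLDA1 of 0.91, while SPRY2 was at -0.95 and DUSP5 at -0.91. The 6 points share the split into 3 Control and 3 RC48 libraries and the GC trend, so these values are descriptions.

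Among the relatives of the members in the same gene families, 14 of 16 were tested and 0 passed edgeR's test, when 2.21% of all genes did. At an unadjusted p under 0.05 there were 6, when 19.1% of all genes were there, and DESeq2 called 2, when it called 5.70% of all genes. Their median log2 fold change was 0.21, with 12 above 0 and 2 below. In RC48, 7 were higher and 2 lower without overlap, when 17.4% and 14.1% of all genes were. The smallest p-values belonged to PHLDA3, a p53-induced inhibitor of AKT signaling (0.59, SE 0.13, edgeR adjusted p = 0.0805), PHLDA2 (0.63, SE 0.17, edgeR adjusted p = 0.138) and SPRY3 (0.65, SE 0.19, edgeR adjusted p = 0.160). With the GC correction the log2 fold changes of PHLDA3, PHLDA2 and SPRY3 were 0.27, 0.29 and 0.95. DUSP2 and ETV1 did not pass the filter on low counts. The median transcript GC content of these 14 relatives was 57.4%, against 51.7% for the 10 members, and with the GC correction their median log2 fold change was 0.082.

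Of 14 other genes that ERK signaling is known to induce, 1 passed the test, when 2.21% of all genes did. LIF, a cytokine of the IL-6 family, had 14.0, 15.1 and 15.7 CPM in Control and 39.9, 24.6 and 28.1 CPM in RC48, and rose by 1.05 on the log2 scale (SE 0.20, edgeR adjusted p = 0.0429). Its lowest RC48 library was above all Control libraries. Without Control replicates 1, 2 or 3 or RC48 replicate 3, its edgeR adjusted p was 0.248, 0.226, 0.227 or 0.151, while the log2 fold change stayed between 1.00 and 1.08. EMP1, an epithelial membrane protein gene, had a log2 fold change of -0.51 (SE 0.11, edgeR adjusted p = 0.0629), and that of the growth regulator MYC was -0.52 (SE 0.11, edgeR adjusted p = 0.0655). The median of the 14 was 0.018, with 4 genes higher and 5 lower in RC48 without overlap, when 17.4% and 14.1% of all genes were. At an unadjusted edgeR p under 0.05 there were 7, when 19.1% of all genes were there. DESeq2 called 5, when it called 5.70% of all genes.

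The cascade itself was covered by 28 genes from the receptors to the ERK substrates. None passed edgeR's test, which called 2.21% of all genes, and 4 had an unadjusted p under 0.05, when 19.1% of all genes did. DESeq2 called 1, when it called 5.70% of all genes. The median log2 fold change was -0.042, and the groups overlapped in 23 of the 28. The others were 3 higher and 2 lower in RC48 without overlap, when 17.4% and 14.1% of all genes were. The smallest p-values were those of the RAF scaffold KSR1 (0.82, SE 0.19, edgeR adjusted p = 0.0850), the kinase MAP2K2, also called MEK2 (0.61, SE 0.22, edgeR adjusted p = 0.223), and the kinase BRAF (-0.42, SE 0.16, edgeR adjusted p = 0.224). With the GC correction the log2 fold changes of KSR1, MAP2K2 and BRAF were 0.54, 0.24 and -0.16. ERBB2, the target of RC48, was at 205 ± 3.05 CPM in Control and 229 ± 46.3 CPM in RC48 (SD, n = 3), a log2 fold change of 0.16 (SE 0.16, edgeR adjusted p = 0.519) that was -0.17 with the GC correction and -0.0084 without RC48 replicate 1. The transcript levels say nothing of phosphorylated ERK, which was not measured in these libraries.

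**Figure D5:**
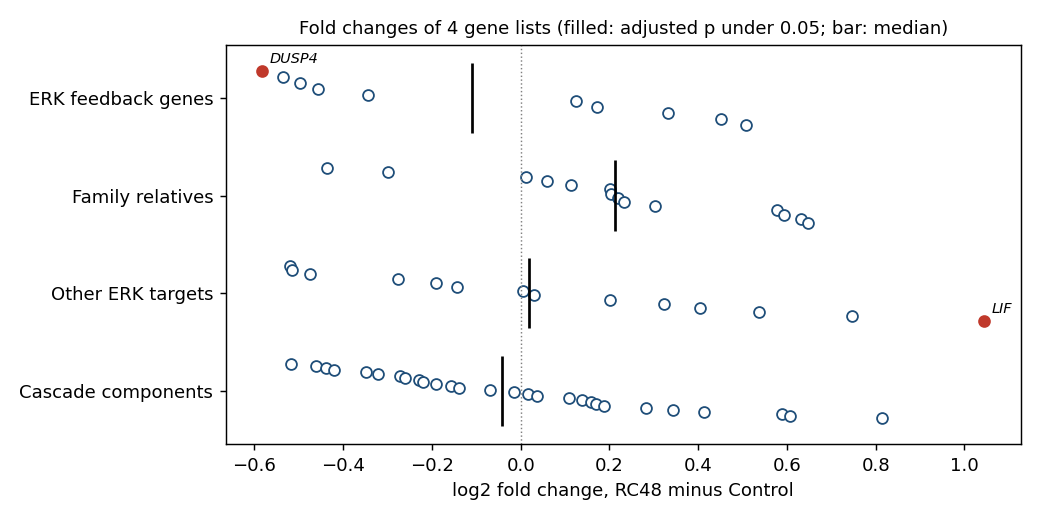
Log2 fold change, RC48 minus Control (horizontal axis), of the genes tested in 4 lists, the ERK feedback genes (10), their family relatives (14), other ERK target genes (14) and cascade components (28), with a bar at each median and filled red points for an edgeR adjusted p under 0.05. DUSP4 and LIF are the filled points.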

How the data were processed

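RNA of 6 SW780 libraries was analysed. The authors used SOAPnuke to filter reads, Bowtie2 to map them and RSEM to count them, and deposited estimated counts per gene, without normalization, and TPM values, normalized for transcript length and library size; versions and annotation are not given in the sources used here, and the submitters' processing notes name hg38. TPM of RC48 replicate 2 was not used here.

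Expected counts were rounded, filtered (filterByExpr), scaled by TMM and tested by edgeR 4.0.16 (quasi-likelihood, Benjamini-Hochberg over 13055 genes, threshold 0.05, R 4.3.3) without covariates. The methods name limma on log2(TPM+1), which was run on 5 libraries as an alternative, since counts cover all 6. For the GC correction, each gene's log2 CPM was taken as its deviation from the gene's mean over the libraries. A loess trend (span 0.3) of this deviation on transcript GC content from GENCODE release 29 (99.4% of genes) was fitted in each library. The trend entered the edgeR fit as an offset and was subtracted from the GC-corrected values per library. Other alternatives were limma on log2(TPM+0.1), DESeq2 1.42.0, a replicate block, RLE, unscaled library sizes, a minimum of 10 counts in every library, no filter, and each library left out.

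All 10 members are named, with genes of each list that passed the test and, where fewer than 3 passed, its 3 genes with the smallest p-values, ERBB2, and the 5 genes most like DUSP6. The members and lists were chosen with earlier results of these data known. Permutation tests used scipy 1.17.1.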

Additional observations from a re-analysis of the deposited data

How the results depend on the processing

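Among the ERK feedback genes, 1 was called in the main test, 4 with DESeq2, 5 with limma on either TPM scale, 3 with the GC correction and 0 to 6 when a library was left out. Family relatives went from 0 to 2 with DESeq2 and limma, 1 with the GC correction and 0 to 2 without a library. Other ERK targets went from 1 to 2 with library sizes alone, 5 with DESeq2 and limma, 6 with the GC correction and 0 to 7 without a library. Cascade components went from 0 to 1 with DESeq2 and the GC correction, 7 with limma and 0 to 9 without a library. All calls went from 288 to 744 with DESeq2, 2894 and 2829 with limma on log2(TPM+1) and log2(TPM+0.1), 1072 with the GC correction and 68 to 3726 without a library. Limma used 5 libraries, and leaving out a library changes the residual degrees of freedom. The cause of any of these shifts was not tested.

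Same-numbered libraries did not deviate together (r = 0.0020, -0.13 and 0.0048), so no pairing by number was seen. These deviations still held the GC trend of each library, so they cannot exclude a pairing. With the replicate block, 6 feedback genes were at an unadjusted edgeR p under 0.05, when 2748 of 13055 genes were. DUSP4 was at an edgeR adjusted p = 0.108. In that fit edgeR called 0 feedback genes, 0 relatives, 1 other target, 0 cascade components and 331 genes in all. With the GC correction and the replicate block together these were 3, 0, 4, 1 and 735.

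With 1 library left out in turn, SPRY4 ran from -0.045 to 0.36 and ERBB2 from -0.0084 to 0.29. SPRY4 turned to -0.025 with the GC correction, -0.037 with that and the block and -0.045 without RC48 replicate 1. ETV5 turned to -0.024 and -0.025 with limma. ERBB2 turned to -0.17 with the GC correction, with and without the block, and to -0.0084 without RC48 replicate 1. None of these passed the test.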

Other observations

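With the GC correction, 8 genes of the 3 comparison lists passed edgeR's test, a selection made after the values were seen. The genes tested were 14 relatives, 14 other ERK targets and 28 cascade components. That fit called 8.21% of all genes, 3.79% as lower. Among the ERK targets, LIF (log2 fold change 0.75, edgeR adjusted p = 0.00314) and PLAUR, the urokinase receptor (0.49, adjusted p = 0.0198), were higher in RC48. MYC (-0.77, adjusted p = 0.00418), EMP1 (-0.45, adjusted p = 0.0170), FOS (-0.48, adjusted p = 0.0234) and the ephrin receptor EPHA4 (-0.42, adjusted p = 0.0403) were lower. SPRED2, a relative of SPRED1, was lower (-0.43, adjusted p = 0.0475), and KSR1 was higher (0.54, adjusted p = 0.0260).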
